A study of Homo sapiens with 6 samples.

Results

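The RAB GTPases are the largest branch of the RAS superfamily of small GTP-binding proteins. Their genes were taken as the rows of the deposited gene table whose symbol is RAB followed by a number and at most 1 letter, which gave 64 of 38843 genes. RAB-like genes, RAB effectors and readthrough genes that carry RAB in a longer name were not members. Of the 64 members, 59 passed a filter on low counts and were tested. The study grew PC-3, an established human prostate cancer line, in DMEM with 10% fetal bovine serum. The control group was 3 libraries of wild-type PC-3 cells collected on day 3 without the compound. The cepharanthine group was 3 libraries of the same cells given 5 µM cepharanthine hydrochloride, a salt form of an alkaloid of Stephania plants, and collected on day 3. The labels name no vehicle for the control, and they are silent on whether the 3 libraries came from separate dishes. The p-values therefore measure the spread between these libraries, which may be technical.

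A RAB protein works as a membrane switch. Guanine nucleotide exchange factors (GEFs) load it with GTP on a particular organelle, and it then recruits effectors such as tethers, motors and sorting complexes. GTPase-activating proteins (GAPs) turn it off, and the GDP dissociation inhibitor extracts it from the membrane by its geranylgeranyl lipid tails. Different RABs mark different steps, from the early endosome through the late endosome to the lysosome, back to the surface through recycling endosomes, and outward from the endoplasmic reticulum and Golgi to secretory vesicles. The question put to these data was which RAB genes differ in transcript level under the compound.

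Total counts were 52774506 to 68241156 per library, and levels are given as CPM, the count scaled to library size with TMM factors. The limit that a count of 0 allows, 3 counts, is 0.0426 to 0.0594 CPM depending on the library and covers counting error only. The label PC-3 was checked by markers. The keratins KRT8 and KRT18 were at 216 to 278 and 166 to 191 CPM, and the epithelial CDH1 at 78.1 to 94.2 CPM. Of 5 such markers, KRT8 and the mesenchymal VIM rose, VIM from 691 ± 51.7 to 1162 ± 94.2 CPM (SD, n = 3), and the epithelial EPCAM fell, from 54.6 ± 1.96 to 42.2 ± 1.73 CPM. Of 7 tested markers of other cell types, 0 rose and 2 fell. These were the endothelial PECAM1, from 46.5 ± 2.46 to 21 ± 3.18 CPM, and the fibroblast COL1A1, from 90.2 ± 10.3 to 56.6 ± 4.62 CPM (SD, n = 3). PTPRC, the pan-leukocyte marker, did not exceed 0.416 CPM and the endothelial VWF did not exceed 0.426 CPM in any library. The macrophage marker CD68, a lysosomal membrane protein, was at 45.4 to 71.6 CPM and was not called. The 8 markers of other cell types analysed here summed to 32.4 to 42.9 FPKM in control and 31.2 to 36.8 FPKM in treated libraries, and their part in the results was not tested.

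The start regions of 6 members that rose are shown first, to set members that hold a shared motif beside members with large changes and none. Promoter windows of 250 bases before each annotated start were taken from RefSeq on GRCh38.p14 and matched 50 of the 64 members by symbol. The windows were searched on both strands for CACGTG, the E-box bound by the lysosomal regulators TFEB and TFE3, and capitals mark it. RAB5A, RAB21 and RAB4A are the called members that hold it, and RAB22A, RAB27B and RAB13, which are among the 5 largest rises, do not.
RAB5A, chr3:19946847-19947096, plus strand: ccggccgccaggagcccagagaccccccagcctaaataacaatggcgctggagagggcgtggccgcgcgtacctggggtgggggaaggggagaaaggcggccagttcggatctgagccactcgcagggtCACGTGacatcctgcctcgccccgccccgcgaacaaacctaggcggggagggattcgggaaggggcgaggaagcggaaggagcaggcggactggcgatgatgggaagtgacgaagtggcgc
RAB21, chr12:71754613-71754862, plus strand: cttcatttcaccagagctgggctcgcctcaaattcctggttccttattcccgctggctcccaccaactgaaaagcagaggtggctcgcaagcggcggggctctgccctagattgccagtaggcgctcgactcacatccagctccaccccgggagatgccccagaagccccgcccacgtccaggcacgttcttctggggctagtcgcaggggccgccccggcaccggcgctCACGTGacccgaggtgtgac
RAB4A, chr1:229270861-229271110, plus strand: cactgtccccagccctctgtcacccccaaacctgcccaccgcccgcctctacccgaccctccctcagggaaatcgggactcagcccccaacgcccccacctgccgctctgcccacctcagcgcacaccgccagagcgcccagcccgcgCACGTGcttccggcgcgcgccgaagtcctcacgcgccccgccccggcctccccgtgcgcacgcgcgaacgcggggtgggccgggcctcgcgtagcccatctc
RAB22A, chr20:58309465-58309714, plus strand: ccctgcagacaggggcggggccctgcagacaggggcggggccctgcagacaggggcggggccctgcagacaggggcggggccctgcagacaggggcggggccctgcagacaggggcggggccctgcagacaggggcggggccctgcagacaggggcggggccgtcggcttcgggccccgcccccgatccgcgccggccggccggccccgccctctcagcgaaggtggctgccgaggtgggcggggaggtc
RAB27B, chr18:54717607-54717856, plus strand: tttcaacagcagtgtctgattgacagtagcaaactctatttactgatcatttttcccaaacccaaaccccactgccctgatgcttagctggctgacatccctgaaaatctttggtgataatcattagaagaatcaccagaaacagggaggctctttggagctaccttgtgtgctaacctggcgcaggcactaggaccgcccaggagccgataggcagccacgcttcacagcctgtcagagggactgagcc
RAB13, chr1:153986340-153986589, minus strand: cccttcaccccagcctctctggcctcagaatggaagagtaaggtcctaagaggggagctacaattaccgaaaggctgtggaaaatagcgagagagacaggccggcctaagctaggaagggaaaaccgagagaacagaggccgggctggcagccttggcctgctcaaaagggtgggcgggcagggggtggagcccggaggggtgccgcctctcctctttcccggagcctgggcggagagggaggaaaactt

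In RAB5A the E-box began 121 bases before the start, in RAB21 20 bases and in RAB4A 102 bases. In RAB5A and RAB21 it sat within the longer palindrome TCACGTGA. The E-box was in 3 of 40 windows of the members that rose (7.5%), in 2 of 27 windows of tested members that did not (7.41%), and in 6.34% of all 35116 windows of the same length. The 8-base palindrome was in 2 of the 40 windows of risen members and in 0.854% of all windows. Both of these contain CACGTG, so the searches overlap. TGATGNAA, a form of the element bound by ATF4 with C/EBP proteins, and TCACNCCAC, a form of the sterol response element, were each in 0 of the 40 windows of risen members, and in 3.14% and 0.883% of all windows. A match or its absence describes only these letters in these windows. The RAB22A window held a 20-base unit repeated in tandem over 162 bases. Median GC content was 64.2% in windows of risen members and 65.2% in those of the other tested members, against 58% over all windows.

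Many RAB transcripts rose under cepharanthine. Among 59 tested members 26 rose, 1 fell and 32 did not pass the threshold, an adjusted p under 0.05 in edgeR's quasi-likelihood test with Benjamini-Hochberg adjustment over all 21965 genes. Among all genes tested 14.7% were called higher and 13.2% lower, whereas 44.1% of the tested members were called higher and 1.69% lower. The median log2 fold change (treated over control) of the tested members was 0.38, beside -0.02 over all genes tested, and 48 of 59 members lay above 0. All 3 treated libraries lay above all 3 control libraries in 29 tested members, which 21.8% of all tested genes did, and the reverse held in 3 members, as in 21.7% of all. Every one of the 26 risen members was without overlap. The calls came from the same libraries and favour this, so it is no separate support. The share without overlap among all genes called higher was not computed.

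The shares were also read among abundant genes alone. Of the 37 members with a mean of at least 10 CPM over all libraries, 25 rose and 0 fell. Among the 10206 tested genes at that level 25.8% were called higher and 19.4% lower, with a median log2 fold change of 0.06 against 0.39 for the members. On the deposited FPKM scale, which divides by gene length, 7 of 12 members with a mean of at least 10 FPKM rose. Between 1 and 10 FPKM, 19 of 30 rose and 1 fell, and 0 of 17 tested members under 1 FPKM were called. The share of all genes called in each of these FPKM bands was not computed, so the bands are descriptions only. Summed over the 64 members, RAB transcripts went from 395 ± 14.3 to 520.1 ± 18.5 FPKM (SD, n = 3), while the total over all genes went from 281498 ± 13026 to 247705 ± 5406 FPKM.

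**Figure D1:**
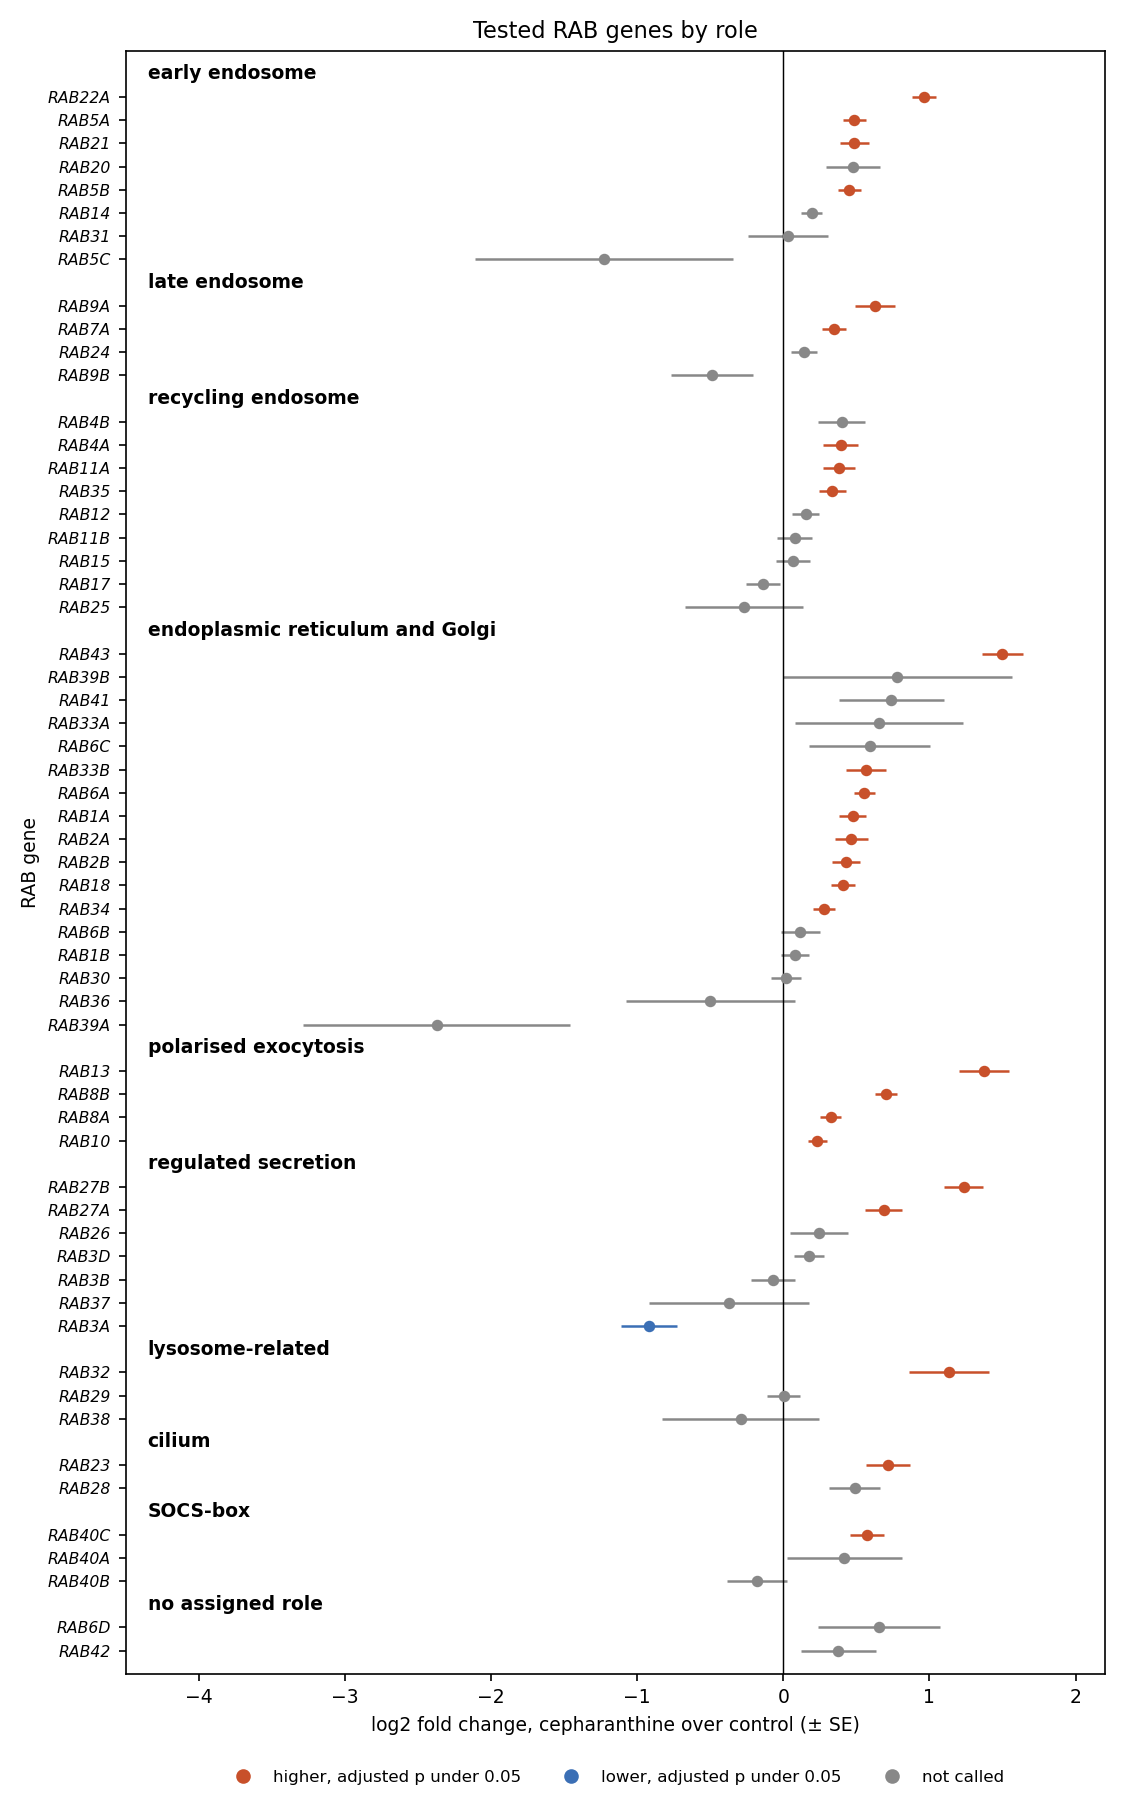
Log2 fold change of treated over control cells on the x axis for the 59 tested RAB genes, grouped by role, with bars of 1 SE. Genes called higher (26) and lower (1) are coloured and the other 32 are grey; the widest bars belong to genes with few counts, such as RAB39A and RAB5C.

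Higher calls outnumbered lower ones under each scaling tried, and their number varied. Limma was run on log2(FPKM + 1) for genes averaging at least 1 FPKM, 13451 in all. It called 28 of 42 members higher and 1 lower. The median log2 difference over all genes of that fit was 0.07, and 62.8% of its calls were higher. FPKM were then rescaled to TPM, a fixed total in each library, for the same genes. The median over these genes moved to 0.26 and the members' median was 0.62. Of the 42 members, 35 were called higher and 1 lower. Over the 13451 genes, 4931 were called higher and 983 lower, so 83.4% of the calls were higher. The edgeR test, over 21965 genes, gave 3219 higher and 2902 lower. Leaving out 1 library at a time gave 19 to 26 risen members and 1 fallen member. The lowest counts were 19 without control replicate 1 and 20 without control replicate 3, and 18 of the 26 members were called in all 6 of these fits.

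Early endosome RABs govern fusion and sorting of freshly internalised membrane. Of these, 4 of the 8 tested, RAB22A, RAB5A, RAB21 and RAB5B, rose and 0 fell, with a median log2 fold change of 0.46. Beside the counts of this and the following role groups, 14.7% of all tested genes were called higher. Among those averaging at least 10 CPM the share was 25.8%. No role group was tested against these shares. The groups are small, and some hold members below 10 CPM. RAB22A, which acts between sorting and recycling endosomes, stood at 62.5, 67.8 and 70.7 CPM without cepharanthine and 131, 121 and 139 CPM with it (log2 fold change 0.96 ± 0.08, edgeR adjusted p = 3.5e-05). Every treated library held well over the highest control value. RAB5A, the canonical RAB of homotypic early endosome fusion, was at 63.6, 55 and 60.2 CPM in control and 83.3, 85.3 and 81.7 CPM in treated libraries (log2 fold change 0.49 ± 0.08, edgeR adjusted p = 0.00129), again without overlap. Its close relative RAB5B went from 103 ± 3.26 to 141 ± 10.5 CPM (SD, n = 3; log2 fold change 0.45 ± 0.08, edgeR adjusted p = 0.00199). RAB21, linked to the traffic of integrins, went from 49.7 ± 2.83 to 69.6 ± 8.8 CPM (log2 fold change 0.49 ± 0.10, edgeR adjusted p = 0.00497). The other 4 did not pass. RAB14, which works between early endosomes and the Golgi, had a log2 fold change of 0.19 ± 0.07 without overlap (edgeR adjusted p = 0.0806), and RAB20, found on early endosomes and phagosomes, 0.48 ± 0.19 (edgeR adjusted p = 0.0858). RAB20 was called higher without control replicate 2 (edgeR adjusted p = 0.0253). RAB31 was at or below 3.15 CPM in every library. RAB5C, the third RAB5 gene, was listed at 0.00893 to 0.199 FPKM, while RAB5A was between 13 and 20.0 FPKM. Whether RAB5C was scarce or its reads were lost in counting cannot be told apart from the table. Of the exon bases of RAB5C, 28.8% belong also to the readthrough gene AC099811.2 on the same strand, which was at 0 counts in all 6 libraries.

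Of 4 tested late endosome members 2 rose, RAB7A and RAB9A, and 0 fell. RAB7A directs late endosomes to fuse with lysosomes and recruits dynein through RILP. Its values were 122, 105 and 118 CPM without cepharanthine and 147, 153 and 139 CPM with it (log2 fold change 0.35 ± 0.08, edgeR adjusted p = 0.0097). The lowest treated library stood above the highest control library, with a smaller step than for RAB22A. RAB9A, which returns mannose 6-phosphate receptors from late endosomes to the Golgi, was at 12, 12.6 and 15.4 CPM in control and 19.2, 19.4 and 23.3 CPM in treated libraries (log2 fold change 0.63 ± 0.14, edgeR adjusted p = 0.0074), also without overlap. RAB24, an atypical member associated with autophagic compartments, was at 0.14 ± 0.09 on the log2 scale and did not pass (edgeR adjusted p = 0.287). It shares 44.8% of its exon bases with MXD3 on the same strand, which went from 24.2 ± 2.38 to 31.7 ± 1.11 CPM. RAB9B was scarce, at 1.11 to 2.26 CPM, with all control libraries above all treated ones but no call (log2 fold change -0.49 ± 0.28, edgeR adjusted p = 0.24). RAB7B, a late endosome to Golgi RAB, had 12 counts or fewer in each library and was not tested.

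Recycling endosome members return receptors and adhesion proteins to the surface. Of 9 tested, 3 rose and 0 fell, with a median log2 fold change of 0.15. With so few members, this count is not told apart from the 25.8% called higher among tested genes averaging at least 10 CPM. RAB11A, the hallmark of slow recycling, was at 49.8, 62.3 and 47.8 CPM without cepharanthine and 63.9, 74.7 and 69.7 CPM with it (log2 fold change 0.38 ± 0.11, edgeR adjusted p = 0.0264). The groups stood apart by a narrow gap, since control replicate 2 lay close to the lowest treated library. The fast-recycling RAB4A went from 13.3 ± 1.31 to 17.5 ± 0.542 CPM (log2 fold change 0.39 ± 0.12, edgeR adjusted p = 0.0327) and RAB35, which acts in rapid return to the plasma membrane, from 37.3 ± 2.14 to 47 ± 4.65 CPM (log2 fold change 0.34 ± 0.09, edgeR adjusted p = 0.0227). None of these 3 calls held in every fit that left out a library. RAB11A was not called without control replicate 1 (edgeR adjusted p = 0.0961), control replicate 3 (0.105), cepharanthine replicate 2 (0.103) or cepharanthine replicate 3 (0.0656). RAB4A was lost in 5 of the 6 fits, with the highest edgeR adjusted p of 0.103 without control replicate 1 and others without control replicate 2 (0.052) and cepharanthine replicates 1, 2 and 3 (0.0964, 0.0672 and 0.079). RAB35 was lost without control replicate 1 or 3 or cepharanthine replicate 3 (edgeR adjusted p = 0.0553, 0.0883 and 0.0758). Among other recycling genes, RAB11B, RAB12, RAB15 and RAB17 had log2 fold changes of 0.08 ± 0.12, 0.15 ± 0.09, 0.06 ± 0.12 and -0.14 ± 0.12 and overlapped between groups. The epithelial RAB25 was low, at 0.512 to 0.712 CPM, and was not called.

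RAB4B, the second RAB4 gene, shares exons with the readthrough genes MIA-RAB4B and RAB4B-EGLN2. Alone it was at 5.58, 7.18 and 6.57 CPM in control and 9.38, 7.5 and 8.61 CPM in treated libraries and was not called (log2 fold change 0.40 ± 0.16, edgeR adjusted p = 0.1). Counted together with both readthrough genes it was at 12.3, 10.1 and 12.8 CPM in the control libraries and 19.6, 18.9 and 17.6 CPM in the treated libraries. That sum was called higher (log2 fold change 0.67 ± 0.13, edgeR adjusted p = 0.00377), in a fit added after the values had been seen.

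RABs of the endoplasmic reticulum and Golgi made up the largest group, and 8 of 17 tested members rose and 0 fell, with a median of 0.47. RAB1A, which directs transport from the endoplasmic reticulum to the Golgi, was at 82.5, 90.1 and 78.8 CPM without cepharanthine and 106, 113 and 129 CPM with it (log2 fold change 0.47 ± 0.09, edgeR adjusted p = 0.00371). The 3 treated values were all above the control values, and cepharanthine replicate 3 was the highest. RAB6A, the main RAB of retrograde traffic to and within the Golgi, was at 139.6, 124 and 128 CPM in control and 195, 190.2 and 189 CPM in treated libraries (log2 fold change 0.55 ± 0.07, edgeR adjusted p = 4.2e-04). The libraries of each group lay close together and far from the other group. RAB33B, a Golgi RAB that binds the autophagy protein ATG16L1, was at 11.9, 10.9 and 9.38 CPM without cepharanthine and 16.3, 14.2 and 17.1 CPM with it (log2 fold change 0.57 ± 0.14, edgeR adjusted p = 0.0124). The RAB33B call did not hold without control replicate 3 (edgeR adjusted p = 0.0528). RAB2A, RAB2B, RAB18 and RAB34 rose by 0.47 ± 0.11, 0.43 ± 0.10, 0.41 ± 0.08 and 0.28 ± 0.08 on the log2 scale. Of these, RAB2A and RAB2B act between the endoplasmic reticulum and Golgi and on late traffic to lysosomes, and RAB18 is found on lipid droplets and the endoplasmic reticulum. RAB34 was lost in 5 of the 6 fits without a library, at edgeR adjusted p between 0.0576 without cepharanthine replicate 1 and 0.0782 without control replicate 3, and held only without control replicate 2. RAB2A was lost without control replicate 1 (0.0523) or cepharanthine replicate 3 (0.0519).

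RAB1B had the highest level of any member, with a mean of 75.8 FPKM over all libraries, and its groups overlapped (log2 fold change 0.08 ± 0.09, edgeR adjusted p = 0.573). RAB30 and RAB6B, at 0.02 ± 0.10 and 0.12 ± 0.13, did not pass either. RAB39A, reported to act in late endosomes and the Golgi, was lower in all 3 treated libraries but at 28 counts or fewer in each library, and it missed the threshold (log2 fold change -2.37 ± 0.91, edgeR adjusted p = 0.0816). RAB6C is a retrotransposed copy of RAB6A. RAB6C and RAB6D were at most 1.06 and 1.76 CPM, and reads of such copies may be split between the genes, so their values are uncertain. RAB33A, RAB36, RAB39B and RAB41 were each under 2 CPM in every library and were not called.

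RAB43, a Golgi RAB, was the member with the highest log2 fold change, and that value changed with how the counts of a readthrough gene were treated. RAB43 was at 12.9, 18.9 and 18.9 CPM in control and 46.8, 48.6 and 47.9 CPM in treated libraries (log2 fold change 1.5 ± 0.14, edgeR adjusted p = 5.9e-05). The readthrough gene ISY1-RAB43, which shares 79.3% of the RAB43 exon bases on the same strand, was at 32.3, 29.6 and 20.5 CPM in the control libraries and at 0 counts in all 3 treated libraries. The sum of both was 45.2, 48.5 and 39.4 CPM in the control libraries and 46.8, 48.6 and 47.9 CPM in the treated libraries. With the readthrough counts added, the RAB43 difference was 0.11 ± 0.09 on the log2 scale and not called (edgeR adjusted p = 0.429). In that fit 26 members were again called higher, with RAB4B in and RAB43 out, so 25 of the 26 genes were shared.

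**Figure D2:**
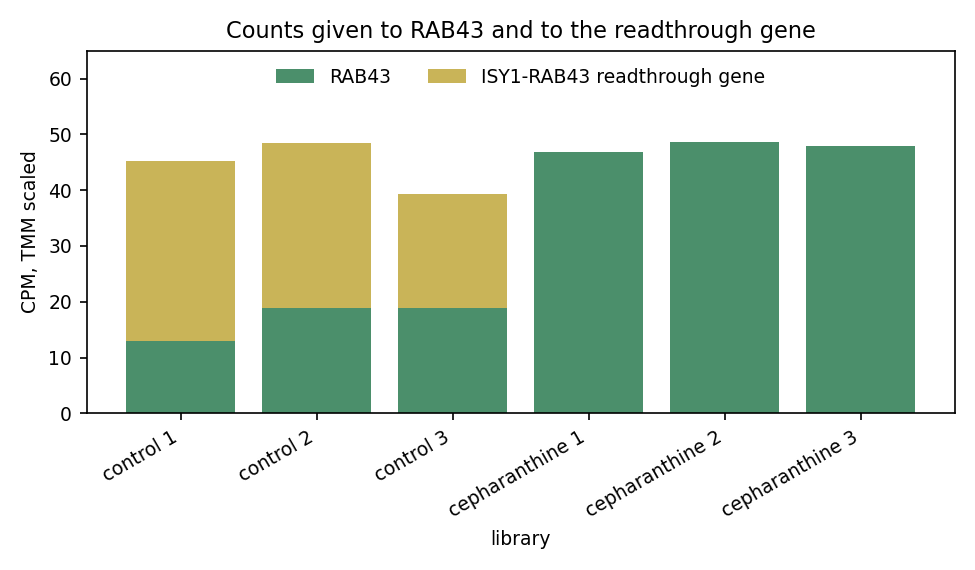
Bars give CPM (y axis, TMM scaled) in each of the 6 libraries (x axis) for RAB43 and, stacked on it, the readthrough gene ISY1-RAB43. The stacked totals lie between 39.4 and 48.6 CPM in both groups, and the readthrough part is 0 in the 3 treated libraries.

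Members of polarised exocytosis, which carry vesicles from the Golgi and recycling endosomes to the cell surface, rose in 4 of 4 cases. RAB13, which acts at tight junctions and at the leading edge of migrating cells, was at 19.1, 23.6 and 13.3 CPM without cepharanthine and 50.1, 47.2 and 47.6 CPM with it (log2 fold change 1.37 ± 0.17, edgeR adjusted p = 3.1e-04). The lowest treated library held more than 2 times the highest control library, and control replicate 3 was the lowest of all. RAB13 shares 24.8% of its exon bases with the gene AL358472.6 on the same strand, which went from 17.1 ± 4.86 to 14.3 ± 1.38 CPM. RAB8B was at 35.5, 34.3 and 32.2 CPM in control and 55.9, 53.2 and 56.9 CPM in treated libraries (log2 fold change 0.70 ± 0.08, edgeR adjusted p = 1.6e-04), with no overlap. Its relative RAB8A, which serves exocytosis and the primary cilium, was at 39.2, 38.4 and 40.1 CPM without cepharanthine and 48.6, 50.2 and 48.6 CPM with it (log2 fold change 0.32 ± 0.07, edgeR adjusted p = 0.00776), and the groups again did not overlap. RAB10, which delivers the glucose transporter GLUT4 to the surface of fat cells, was at 109, 109 and 112 CPM in control and 133, 126 and 128 CPM in treated libraries (log2 fold change 0.23 ± 0.07, edgeR adjusted p = 0.0247). This was the smallest of the called changes in the family. RAB10 was not called in 5 of the 6 fits without a library, without any control replicate or without cepharanthine replicate 1 or 2, where edgeR adjusted p was 0.0507 to 0.097.

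Among members of regulated secretion, which dock granules and exosome-bearing endosomes at the plasma membrane, 2 of 7 tested rose and 1 fell. This count, too, is not told apart from the 25.8% called higher among tested genes averaging at least 10 CPM. RAB27B was at 12.7, 14.8 and 11.3 CPM without cepharanthine and 29.8, 27.5 and 34.3 CPM with it (log2 fold change 1.24 ± 0.13, edgeR adjusted p = 1.4e-04). The lowest treated library stood above the highest control library by a wide margin. RAB27A, the melanosome and granule RAB lost in Griscelli syndrome, was at 8.24, 8.12 and 8.65 CPM in control and 13.4, 12.4 and 14.4 CPM in treated libraries (log2 fold change 0.69 ± 0.13, edgeR adjusted p = 0.00306). RAB3A, best known from synaptic vesicles, was the single member that fell, at 7.45, 5.88 and 6.02 CPM without cepharanthine and 4.01, 3.06 and 3.15 CPM with it (log2 fold change -0.92 ± 0.19, edgeR adjusted p = 0.00587). The highest treated library remained below the lowest control library. RAB3D, the more abundant RAB3 gene here, had a log2 fold change of 0.18 ± 0.10 and RAB3B of -0.07 ± 0.15, neither called (edgeR adjusted p = 0.244 and 0.779). RAB26 and RAB37 were also not called, at 0.24 ± 0.20 and -0.37 ± 0.55. RAB3C had 8 counts in 1 control library and none in the others.

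**Figure D3:**
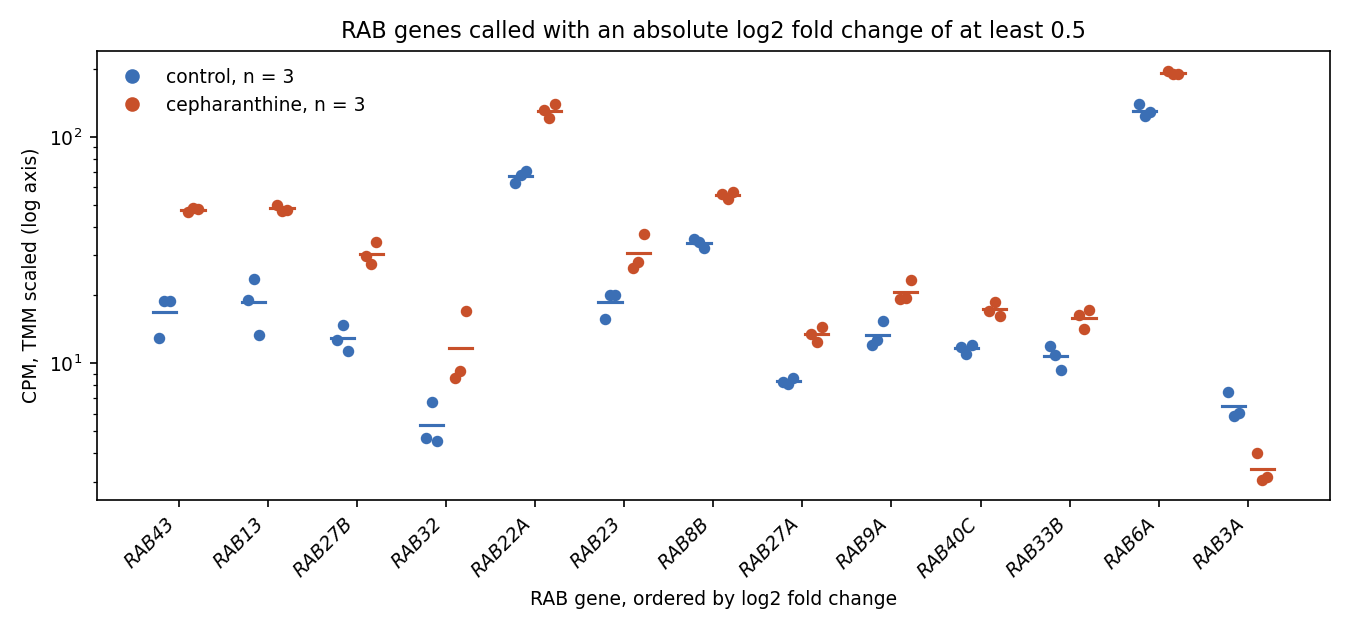
CPM (y axis, TMM scaled, log axis) in each library for the 13 RAB genes (x axis) called with an absolute log2 fold change of at least 0.5; points are libraries, lines the group means, n = 3. In 12 genes all treated points lie above all control points, and in RAB3A they lie below; the RAB43 values exclude the readthrough gene.

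RAB32, RAB38 and RAB29 form the subfamily of lysosome-related organelles such as melanosomes. RAB32 was at 4.66, 6.73 and 4.55 CPM in control and 8.59, 9.29 and 17.1 CPM in treated libraries (log2 fold change 1.13 ± 0.27, edgeR adjusted p = 0.0123). Cepharanthine replicate 3 stood far above the other treated libraries. Without it the log2 fold change was 0.75 (edgeR adjusted p = 0.0402). The call ended without control replicate 1 (edgeR adjusted p = 0.0548) or control replicate 3 (0.0564), with log2 fold changes of 1.05 and 1.03. RAB38, at 0.412, 1.05 and 0.93 CPM without cepharanthine and 0.287, 0.687 and 0.981 CPM with it, overlapped and was not called (log2 fold change -0.29 ± 0.54, edgeR adjusted p = 0.738). RAB29, the partner of the kinase LRRK2 at the Golgi and lysosome, was level between groups, from 22.2 ± 2.2 to 22.2 ± 1.81 CPM (log2 fold change 0.00 ± 0.11, edgeR adjusted p = 0.987).

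RAB23, a negative regulator of Hedgehog signalling in mouse that acts at the cilium, was at 15.7, 20.0 and 20.1 CPM in control and 26.4, 28.1 and 37.2 CPM in treated libraries (log2 fold change 0.72 ± 0.15, edgeR adjusted p = 0.00587). No control library reached the lowest treated one. It shares 57.7% of its exon bases with BAG2 on the opposite strand, which went from 18.5 ± 3.74 to 19.2 ± 3.26 CPM. RAB28 was at 0.49 ± 0.18 without overlap and missed the threshold (edgeR adjusted p = 0.0654), and it was called without control replicate 2 (0.0339). RAB40C, a RAB with a SOCS box that serves ubiquitin ligases, was at 11.8, 11 and 12.1 CPM without cepharanthine and 17, 18.7 and 16.2 CPM with it (log2 fold change 0.57 ± 0.12, edgeR adjusted p = 0.0054), with the groups apart. RAB40B and RAB40A were not called, at -0.18 ± 0.20 and 0.42 ± 0.39. RAB42 and RAB6D, to which no role was assigned, were not called. RAB1C, RAB19 and RAB44 had at most 23 counts in any library and were not tested.

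Counting without strand cannot separate reads of overlapping genes, and the use of strand is not given in the sources used here. Of the 26 risen members, 3 (RAB13, RAB43 and RAB4A) share at least 10% of their exon bases with a gene on the same strand and 5 (RAB1A, RAB23, RAB33B, RAB35 and RAB8A) with one on the opposite strand, by GENCODE 29 exons. The other 18 share less than that with either. Opposite RAB35, AC004812.2 went from 4.24 ± 0.291 to 2.23 ± 0.179 CPM, while CEP68 opposite RAB1A went from 16.2 ± 2.74 to 17.8 ± 1.43 CPM. AC097376.2 opposite RAB33B and AC008894.2 opposite RAB8A were below 3 CPM in each library.

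In some pairs of related genes the ratio stood apart between the groups in these libraries, but no call could be made. To compare them within each library, the FPKM ratio of 12 pairs was taken and tested by an exact two-sided permutation test, which cannot go below p = 0.1 with 3 libraries on each side. The p-values were adjusted over the 12 pairs. In 8 pairs the ratios of the groups did not overlap, each with p = 0.1 by the exact test (adjusted 0.15). Each of these pairs holds a member already called from the same libraries. As single genes, 21.8% of all tested genes were higher and 21.7% lower in treated libraries without overlap. The share among other gene pairs was not computed. RAB1A/RAB1B was 0.286, 0.335 and 0.278 in control and 0.363, 0.337 and 0.495 in treated libraries. RAB8A/RAB8B was 1.14, 1.16 and 1.29 in control and 0.9, 0.975 and 0.884 in treated libraries. RAB27A/RAB27B was 0.821, 0.695 and 0.972 in control and 0.575, 0.575 and 0.535 in treated libraries. In these libraries the treated ratios stood higher for RAB1A over RAB1B and lower for RAB8A over RAB8B and for RAB27A over RAB27B. The exact test could not reach the threshold, so no call is made. For RAB1A/RAB1B the gap was narrow, 0.335 in control replicate 2 against 0.337 in cepharanthine replicate 2. RAB9A/RAB9B, RAB22A/RAB31, RAB32/RAB29 and RAB6A/RAB6B were higher in every treated library, by log2 differences of 1.11, 0.88, 1.08 and 0.45. RAB9B and RAB31 were scarce, at most 0.534 and 0.473 FPKM in any library, so the ratios over them are uncertain. RAB3A/RAB3D was lower by a log2 difference of -1.11. The RAB2A/RAB2B, RAB4A/RAB4B, RAB5A/RAB5B and RAB11A/RAB11B ratios overlapped (exact permutation p = 0.9, 0.9, 0.7 and 0.3). RAB5A/RAB5B was 1.04, 0.937 and 1.04 in control and 1.02, 0.983 and 1.09 in treated libraries, so both RAB5 genes stood near equal FPKM in all libraries.

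**Figure D4:**
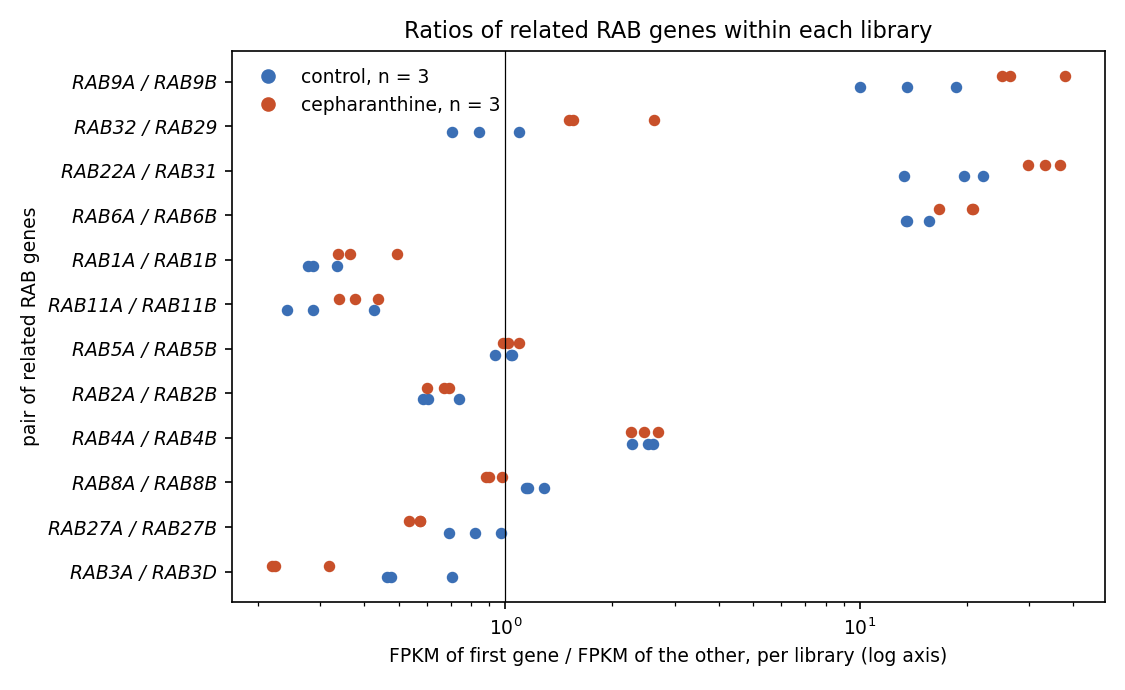
FPKM ratio of 2 related RAB genes within each library (x axis, log axis) for 12 pairs (y axis); each point is a library, 3 control and 3 treated, and the vertical line marks a ratio of 1. The groups separate in 8 pairs and overlap in RAB2A/RAB2B, RAB4A/RAB4B, RAB5A/RAB5B and RAB11A/RAB11B.

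The summed level of each role group, in FPKM, weights each member by its transcript. Early endosome members went from 51.2 ± 2.53 to 74.3 ± 3.1 FPKM (SD, n = 3), late endosome members from 41.6 ± 2.01 to 52.4 ± 4.22 FPKM and recycling members from 73.9 ± 0.795 to 86.5 ± 1.46 FPKM. Endoplasmic reticulum and Golgi members went from 150.5 ± 5.39 to 195 ± 2.59 FPKM, and polarised exocytosis members from 44 ± 3.05 to 65.5 ± 3.71 FPKM. The endoplasmic reticulum and Golgi sum holds RAB43 without its readthrough gene, which went from 2.89 ± 0.639 to 8.5 ± 0.313 FPKM. Members of regulated secretion summed to far less, from 14.3 ± 0.854 to 17.4 ± 1.57 FPKM, and the lysosome-related subfamily went from 9.62 ± 1.67 to 15.2 ± 5.03 FPKM. The treated libraries of this subfamily summed to 12.1, 12.6 and 21 FPKM, the last being cepharanthine replicate 3. RAB32 alone went from 4.29 ± 1.18 to 9.79 ± 4.32 FPKM. These sums are descriptions and were not tested.

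The proteins that load, release and read RABs did not share one direction. Of 137 tested genes in 4 lists of such proteins, 36 rose and 13 fell, with a median log2 fold change of 0.09. Among all genes tested 14.7% were called higher and 13.2% lower. Among tested genes averaging at least 10 CPM, to which the lists were not restricted, these shares were 25.8% and 19.4%. Under TPM scaling 56 genes of the lists were called higher and 4 lower. In that fit 83.4% of the calls over all 13451 genes were higher, so the edgeR shares above do not apply to it. Among the 6 genes of geranylgeranylation and RAB extraction 2 rose and 0 fell. CHM, the escort protein REP1 that presents new RABs to the lipid transferase, was at 24.4, 25.9 and 27.2 CPM in control and 40.1, 33.2 and 41.2 CPM in treated libraries (log2 fold change 0.56 ± 0.10, edgeR adjusted p = 0.00286), and GDI2, a GDP dissociation inhibitor, rose by 0.24 ± 0.08, close to the threshold (edgeR adjusted p = 0.044). The GDI2 call ended in each of the 6 fits without a library, at edgeR adjusted p from 0.0547 without control replicate 2 to 0.157 without control replicate 3.

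Of 35 tested GEFs, 9 rose and 6 fell (median 0.14). RIN2, a GEF of RAB5, was at 98.2, 111 and 99.5 CPM without cepharanthine and 51.5, 50.5 and 48.2 CPM with it (log2 fold change -1.04 ± 0.08, edgeR adjusted p = 1.8e-05). It was lower in every treated library while its substrates' genes RAB5A and RAB5B were higher. RGP1, a subunit of the RIC1-RGP1 GEF of RAB6A, also fell (log2 fold change -0.59 ± 0.08, edgeR adjusted p = 5.9e-04). DENND5A, a GEF of RAB39, and RAB3IL1, a GEF of RAB8 and partner of RAB3A, rose by 0.52 ± 0.07 and 0.78 ± 0.12. The GAP list had 7 higher and 2 lower of 37, with a median of -0.01. RAB3GAP1, the catalytic subunit of the RAB3 GAP, and TBC1D10A, a GAP of RAB27A and RAB35, rose by 0.50 ± 0.08 and 0.64 ± 0.12. TBC1D16, a GAP of RAB4A, and TBC1D4, the insulin-regulated GAP of RAB10, both fell (-0.55 ± 0.07 and -0.50 ± 0.10). The calls of RGP1, TBC1D16 and TBC1D4 ended under TPM scaling, with limma adjusted p = 0.063, 0.0616 and 0.179.

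Effectors moved both ways, with 18 of 59 tested higher and 5 lower (median 0.16). OPTN, which binds RAB8 and serves as an autophagy receptor, was at 43.1, 43.6 and 42.4 CPM in control and 111, 112 and 117 CPM in treated libraries (log2 fold change 1.40 ± 0.07, edgeR adjusted p = 2.6e-06). The treated libraries were far above the control libraries and close to each other. PLEKHM1, which ties RAB7 to the tethering complex of lysosome fusion, rose by 0.79 ± 0.09. SYTL2, an effector of RAB27A and RAB27B, was at 138, 119 and 110.2 CPM without cepharanthine and 68.3, 62.7 and 72.6 CPM with it (log2 fold change -0.85 ± 0.10, edgeR adjusted p = 2.1e-04). MICALL2, an effector of RAB13 at cell junctions, was at 38.3, 41.4 and 38 CPM in control and 26.5, 23.8 and 22.6 CPM in treated libraries (log2 fold change -0.69 ± 0.09, edgeR adjusted p = 4.9e-04). Both effector genes, picked by smallest adjusted p, were lower in all treated libraries, opposite in direction to the RAB genes they serve. Other effectors of the same RABs did not all fall. MICALL1, a relative of MICALL2, rose by 0.57 ± 0.10. Among effectors of RAB27, EXPH5 rose by 0.31 ± 0.10 and MLPH fell (-0.43 ± 0.11), and the other SYTL genes were not called.

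**Figure D5:**
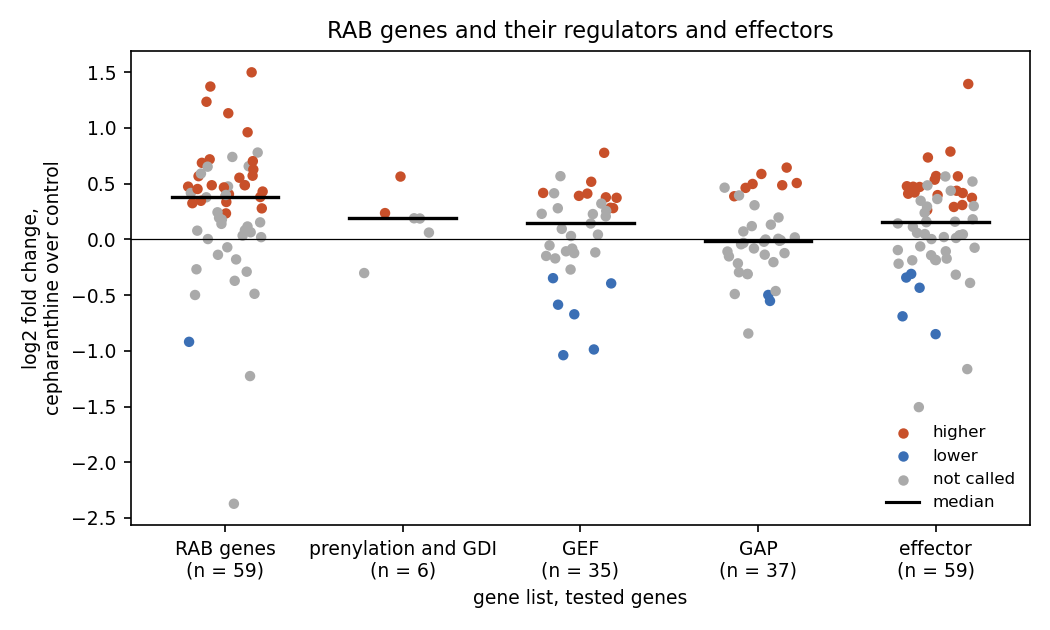
Log2 fold change of treated over control (y axis) for each tested gene of 5 lists (x axis): the 59 RAB genes, 6 genes of prenylation and RAB extraction, 35 GEFs, 37 GAPs and 59 effectors. Horizontal lines are medians, 0.38 for RAB genes and between -0.01 and 0.19 for the other lists; coloured points passed the threshold.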

How the data were processed

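Per the labels' protocols, TRIzol RNA (1.2 µg per library) went into SMARTER mRNA-Seq libraries. The deposited table holds raw read counts per gene (whole numbers) and FPKM, both per the file headers. The submitters' processing notes name the builds GRCm38, mm10 and hg38 without roles, while aligner, counter, annotation release, strand setting and FPKM denominator were not given in the labels or file headers. Of the gene identifiers 96.8% were in GENCODE 29 on GRCh38, and 100.0% of these lay on the same chromosome. Control columns carry another prefix than the control titles and were assigned by group and number.

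Counts were filtered with filterByExpr, scaled by TMM and tested with edgeR 4.0.16 (R 4.3.3), two-sided, with Benjamini-Hochberg adjustment over 21965 genes at a threshold of 0.05. The SE is the absolute log2 fold change over the square root of F. Members and lists were chosen with earlier results of these data known. Values in each library are given for members called with an absolute log2 fold change of at least 0.5 and for 11 members fixed by role, and up to 4 genes per regulator list by smallest adjusted p. Other named members, readthrough genes and neighbours were chosen after their values were seen. Alternatives were DESeq2 1.42.0, RLE factors, no filter, mitochondrial genes left out, a replicate block, each library left out, and limma 3.58.1 on log2(FPKM + pseudocount). The edgeR and DESeq2 fits, and limma on log2(CPM + 1), were tested on simulated data, and the other fits were not. Changes of 1.5, 2 and 4 fold were set in 68, 72 and 60 of 21965 genes. EdgeR recovered 23.5%, 44.4% and 71.7% of them, and 6.19% of its calls were false. DESeq2 recovered 32.4%, 51.4% and 76.7%, with 27.1% false. Limma recovered 26.5%, 45.8% and 71.7%, with 10.5% false. Far more genes were called in the real data, so these shares need not hold there. Depth was 52774506 to 68241156 counts per library, and no columns of other samples were present. One marker of the cell line is not reported here.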

Additional observations from a re-analysis of the deposited data

How the results depend on the processing

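The 26 risen RAB members were all called again with RLE factors, with DESeq2, without a low-count filter and without mitochondrially encoded genes, and the fallen RAB3A stayed lower in each. Leaving out 1 library gave 19 to 26 risen members and 1 fallen. Limma on log2(FPKM + 1) without a filter on low values gave 15 higher and 2 lower members, 18 higher and 6 lower regulators and effectors, and 2077 higher and 1333 lower genes in all. In limma with the filter the genes called lower numbered 1897 with a pseudocount of 1 and 1883 with 0.1. Rescaling to TPM gave 4931 higher and 983 lower of 13451 genes, and 56 higher and 4 lower regulators and effectors. The cause was not tested. RAB38, which was not called, had log2 fold changes of -0.72 to 0.067 over the fits without a library, the highest without cepharanthine replicate 1. Of 541 values of single genes under alternatives, 507 kept their direction and side of the threshold, 33 kept the direction but missed it and 1 turned. Of the 26 members, 13 were called under all 16 alternatives, the added one with readthrough counts included.

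Same-numbered libraries did not deviate together (correlations of 0.004, -0.007 and -0.07 of deviations from the group mean), and not every library correlated best with its own number, so the number was not used as a pairing. A replicate block gave 2544 higher and 2294 lower genes and 22 risen and 1 fallen RAB members. It ended the calls of RAB10, RAB34, RAB35 and RAB4A (edgeR adjusted p = 0.0797, 0.0716, 0.069 and 0.0744), which left 1 of the 3 risen recycling members. The 17 tested members under 1 FPKM gave no call in the edgeR test; their counts ranged widely, and a missed threshold does not show that a member did not change.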

Other observations

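Genes with a related name outside the family rule did not move together. They were looked up after their values had been seen. RABL2A and RABL2B, near-identical RAB-like genes linked to cilium assembly whose reads may be split between them, were both lower, with log2 fold changes of -0.65 ± 0.12 and -0.46 ± 0.12 (edgeR adjusted p = 0.00374 and 0.0157). RABL6 was also lower, at -0.28 ± 0.08 (edgeR adjusted p = 0.0222). RABL3 and RABAC1, the prenylated RAB acceptor, were higher, at 0.58 ± 0.10 and 0.44 ± 0.14 (edgeR adjusted p = 0.00176 and 0.0406), with all treated libraries above all control libraries. RABIF, a nucleotide-free RAB chaperone, was at -0.28 ± 0.11 and not called (edgeR adjusted p = 0.0992), although all 3 control libraries lay above the treated ones.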
